A study of Mus musculus and Bos taurus with 2 samples.

Results

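The bovine spliced antisense models are transcript models of 8-cell to 16-cell bovine embryos that cross an exon of a reference gene on the opposite strand and are themselves spliced. They were chosen by 2 values in the deposited models: the class code x, which in the scheme of the program gffcompare stands for exonic overlap on the opposite strand, and a count of at least 2 exons. The rule found 1255 models, out of 40819 in the bovine library and 82847 in both libraries. The bovine library came from in vitro produced embryos collected 72 h after insemination, made by fertilizing in vitro matured oocytes with the sperm of a Japanese Black bull. The oocyte donors were Japanese Black cattle or F1 crosses of Japanese Black × Holstein. The mouse library, given beside it, came from in vitro fertilized Slc:ICR embryos at the late 2-cell stage, 36 h after insemination. Each library pooled about 200 embryos, and its polyadenylated RNA was read as PCR-amplified cDNA (14 cycles) on a nanopore sequencer, so that a read can cover a transcript over many exons. Each species has 1 library, so values have no error between replicates and the species were not tested against each other. Species, stage and reference annotation differ together and cannot be told apart. Read support is not part of the models, and their depth is unknown. The range after a share is its 95% Clopper-Pearson interval (exact), and it covers only the error of counting models. Models that share a start or a locus are not independent of each other.

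Antisense transcripts are read from the strand opposite to a gene. Some start near the promoter of that gene and leave it in the other direction, some run into its end from beyond it, and some lie inside it. A few are known to act on the opposite gene through its chromatin, its splicing or the stability of its mRNA, while for most no function is known. Many promoters of mammals are read in both directions, and around genome activation, when the embryo first transcribes its own genes, promoters inside transposable elements are known to add many transcripts outside annotated genes.

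Most antisense models had few exons, a count that the rule bounds at 2 from below. Of the 1255 models, 608 had 2 exons (48.4%, 45.6% to 51.3%), 384 had 3 and 170 had 4, while 13 had 8 or more. Among the other 37875 spliced bovine models 16.3% had 2 exons (15.9% to 16.7%) and 37.3% had 8 or more (36.8% to 37.7%). Just outside the rule lay 67 antisense models of a single exon, 5.07% of all 1322 bovine antisense models (3.95% to 6.39%). The median was 3 exons in the antisense models and 6 in the other spliced models. With 1 model per locus the antisense median was 2.

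**Figure D1:**
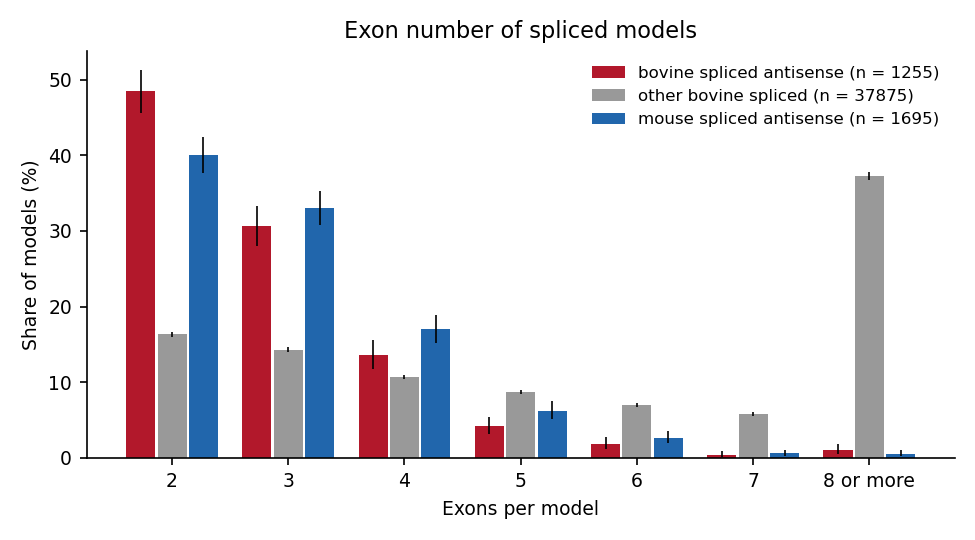
Share of models (y axis, percent) by number of exons (x axis) for the bovine spliced antisense models, the other bovine spliced models and the mouse spliced antisense models, with 95% Clopper-Pearson intervals over models as error bars. In the antisense sets of both species models of 2 exons are the most frequent, at 48.4% in bovine and 40.0% in mouse, while 37.3% of the other bovine spliced models have 8 exons or more.

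The introns of these models were long. The median span on the genome was 9111 bp, from 601 bp to 185183 bp, against 16741 bp in the other spliced models. The median intron was 2482 bp in the antisense models and 1414 bp in the others, and 526 antisense models (41.9%, 39.2% to 44.7%) had an intron over 10 kb (10000 bp). Spliced length had a median of 1140 bp in the antisense models and 1717 bp in the others. The first exon was longer in the antisense models, with a median of 243 bp against 184 bp, and the last exon was close in size, with 639 bp against 661 bp. The spliced models between genes, which overlap no reference gene, had medians of 2 exons, 1080 bp of spliced length, a 219 bp first exon and a 2239 bp intron. These are descriptions of 1 library, and no test was made.

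The 1255 models formed 869 loci with 923 start groups, and 632 of the loci (72.7%, 69.6% to 75.7%) held 1 antisense model. They lay opposite 854 reference genes by symbol, of which 185 had a LOC symbol. Of the 854, 608 had 1 antisense model, 91 had 3 or more and 39 had 4 or more. The plus strand held 625 of the models (49.8%, 47.0% to 52.6%). The opposite reference transcript was a coding one for 1045 models (83.3%, 81.1% to 85.3%) and a noncoding one for 210. As a share of the spliced models of a chromosome, antisense models ran from 1.90% on chromosome 29 (1.15% to 2.95%) to 4.96% on chromosome 12 (3.56% to 6.69%), with 3.21% over all chromosomes (3.03% to 3.39%). In the mouse library the share was 4.65% (4.43% to 4.87%).

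Whether the gene on the other strand was also assembled in the same embryos is not used by the rule. A sense model was present for 558 of the 854 opposite genes (65.3%, 62.04% to 68.5%), and a model with the exact intron chain of the reference for 283 (33.1%, 30.0% to 36.4%). The mean number of sense models was 2.76 for opposite genes that had any and 2.47 for the other genes, with a median of 2 in both. These 558 genes are 4.17% of the 13375 bovine genes with a sense model. The share of all reference genes with a sense model was not computed, so the 65.3% cannot be read as high or low. In the mouse library 530 of 1084 opposite genes had a sense model (48.9%, 45.9% to 51.9%). Of the 1255 antisense models, 413 overlapped an exon of a sense model (32.9%, 30.3% to 35.6%) and 431 an exon of any model on the opposite strand (34.3%, 31.7% to 37.04%). By the meaning of the class code the rest overlap an exon of the reference, which was not among the exons assembled on that strand. Only 5 models overlapped an exon of another spliced antisense model.

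Where a model overlapped an assembled exon of its opposite gene (401 models), the overlap was short, with a median of 261 bp and quartiles of 134 and 470 bp. The first exon alone made the overlap in 130 of them (32.4%, 27.9% to 37.2%), the last exon alone in 151 (37.7%, 32.9% to 42.6%), and more than 1 exon in 92 (22.9%, 18.9% to 27.4%). In mouse the first exon alone made it in 58 of 376 models (15.4%, 11.9% to 19.5%) and the last exon alone in 182 (48.4%, 43.2% to 53.6%). No model shared both ends of an intron with a model on the opposite strand, which allows a share of up to 0.294%, and with a tolerance of 10 bp 1 model did. The class code scheme sets such models aside under the code s, which 89 bovine models carry, so the rule itself limits how often this can be found.

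The position of an antisense model relative to its opposite gene was read from the outline of the exact matches of that gene, which 397 models allowed. Overlap at the start of the opposite gene, head to head, was the arrangement with most models, with 157 models (39.5%, 34.7% to 44.5%). Overlap at its end, tail to tail, followed with 115 (29.0%, 24.6% to 33.7%). Inside the gene lay 65 models (16.4%, 12.9% to 20.4%), 22 ran across both ends and 38 lay outside the outline. With all sense models as the outline (829 models), 29.4% were head to head, 25.6% outside and 22.4% tail to tail. Head-to-head models were compact, with a median span of 3561 bp, against 26616 bp for tail-to-tail models. The mouse library had 93 of 514 models head to head (18.1%, 14.9% to 21.7%), 147 tail to tail (28.6%, 24.7% to 32.7%) and 175 inside (34.0%, 30.0% to 38.3%).

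**Figure D2:**
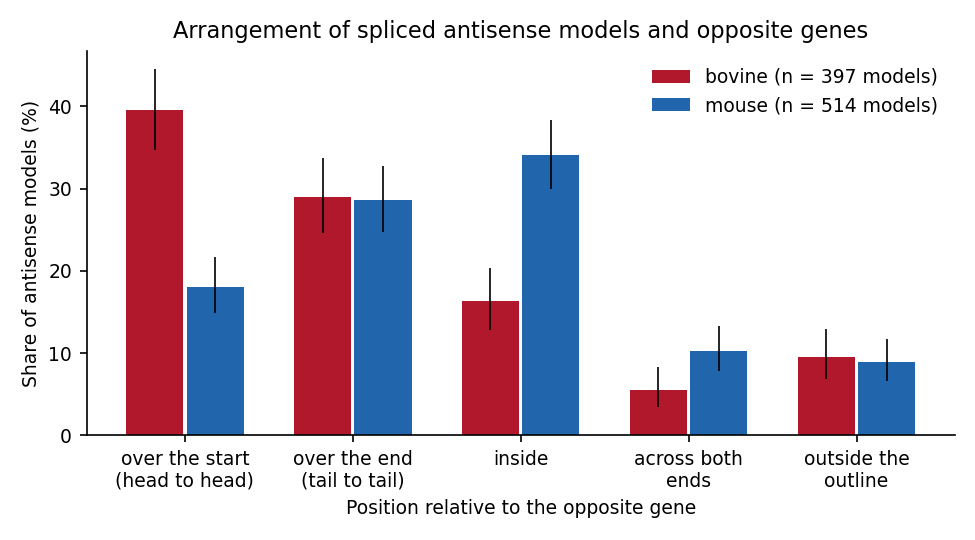
Share of spliced antisense models (y axis, percent) by position relative to the outline of the exact matches of the opposite gene (x axis), for bovine (397 models) and mouse (514 models), with 95% Clopper-Pearson intervals over models as error bars. Head-to-head overlap holds 39.5% of the bovine and 18.1% of the mouse models, and models inside the gene hold 16.4% of the bovine and 34.0% of the mouse models.

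Of the bins of distance from the opposite start, the first inside the opposite gene held most bovine antisense models. Of the 397 models, 94 began within the first 1000 bp downstream of the opposite start (23.7%, 19.6% to 28.2%) and 48 in the next 1000 bp (12.1%, 9.05% to 15.7%). Another 12 began within 1000 bp upstream. The rule asks for overlap with a reference exon, so models that begin upstream of the reference gene and lead away from it are largely left out. Counting both sides, 106 models (26.7%, 22.4% to 31.3%) started within 1000 bp of the opposite start, and 39.3% within 2000 bp. The mouse value within 1000 bp was 38 of 514 models (7.39%, 5.28% to 10.01%). Far from the opposite start, 67 bovine models (16.9%) began at 20000 to 50000 bp and 56 (14.1%) at over 100000 bp. These shares depend on the outline. With all sense models as the outline (829 bovine models), 113 began within the first 1000 bp downstream (13.6%, 11.4% to 16.2%). On either side, 171 began within 1000 bp (20.6%, 17.9% to 23.5%). Upstream at any distance began 106 of the 829 (12.8%, 10.6% to 15.3%), against 21 of the 397 (5.29%). The models opposite PNOC are among those 106. Over all 1255 models, 154 (12.3%, 10.5% to 14.2%) started within 1000 bp of the start of an exact match on the opposite strand, against 125 of the 4380 spliced bovine models between genes (2.85%, 2.38% to 3.39%). Models between genes are defined by touching no reference gene, so the definitions alone set part of that difference.

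**Figure D3:**
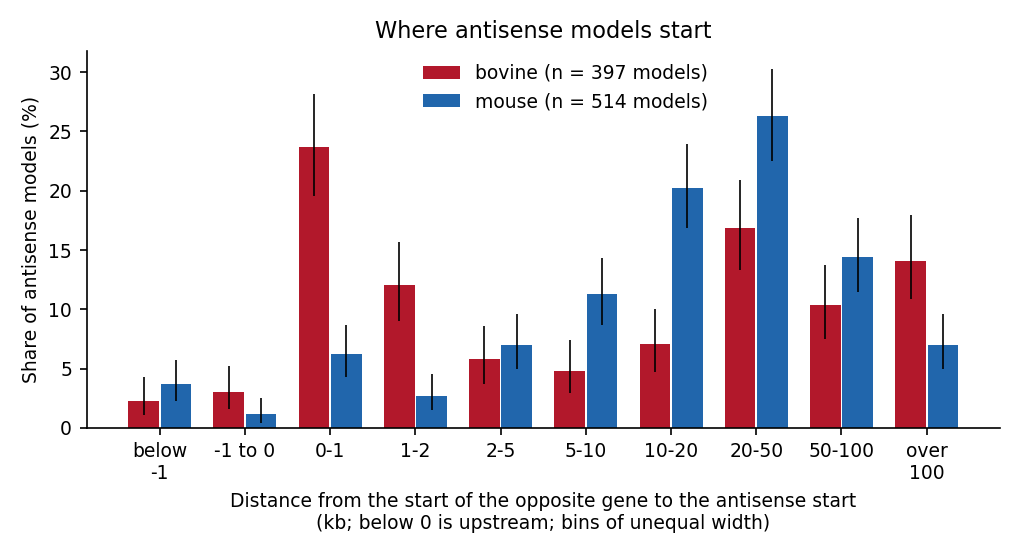
Share of spliced antisense models (y axis, percent) by the distance from the start of the opposite gene, as outlined by its exact matches, to the start of the antisense model (x axis, kb, in bins of unequal width, with values below 0 upstream), with 95% Clopper-Pearson intervals over models as error bars. The bin from 0 to 1 kb holds 23.7% of the bovine models and 6.23% of the mouse models. The tallest mouse bar is at 20 to 50 kb, which holds 16.9% of the bovine and 26.3% of the mouse models.

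Some of the genes with most antisense models had head-to-head ones, among them TIAL1, which encodes an RNA-binding protein of stress granules and splicing. Where a named gene had no exact match, its position is given against the outline of all its sense models. Opposite TIAL1, which had 8 sense models, 5 antisense models lay on the plus strand of chromosome 26 (bosTau9). Of these, 4 began at 39717009 and 1 at 39717537, at 876 bp and 348 bp inside the outline of the exact matches. They ended at 39719866, 39738492, 39750238, again 39750238, and 39760837, with spans of 2858 to 43829 bp. They overlapped exons of TIAL1 by 592 to 772 bp. Opposite MRPL53, a mitochondrial ribosomal protein gene, 5 models on the minus strand of chromosome 11 shared both the start and the end (10158903 to 10161796) and differed in splicing. Their overlap with MRPL53 exons ran from 391 to 2377 bp.

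The retinoblastoma-like gene RBL1, a repressor of cell cycle genes, had 3 antisense models on the plus strand of chromosome 13 that all ran between 66074402 and 66078737. They began 133 bp inside RBL1 and overlapped its exons by 134 bp, with 3 or 4 exons each. The splicing factor gene SRSF1 had 1 antisense model of 2 exons that began 961 bp inside the gene, on chromosome 19 between 8809131 and 8811022. U2AF2, whose protein recognises the polypyrimidine tract of introns, had 3 models that began together at 61892242 on chromosome 18. They began 830 bp inside the outline of the exact matches and spanned 1655, 7145 and 14189 bp. From the nearest start of a U2AF2 exact match the distance was -4 bp, where a value below 0 is upstream. Both RBL1 and U2AF2 thus had a single antisense start, with 1 end at RBL1 and 3 at U2AF2.

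PNOC, the gene of the neuropeptide precursor prepronociceptin, shared the highest count with ELOVL6, with 7 antisense models each. The 7 opposite PNOC began at 10398765 on the plus strand of chromosome 8 with a first exon of 352 bp, 188 bp upstream of the outline of the 3 sense models of PNOC. All 7 lay outside that outline and overlapped none of its assembled exons. They had 3 or 4 exons, ended between 10408612 and 10472295, and were 1017 to 4189 bp long after splicing. PNOC had no exact match in this library.

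**Figure D4:**
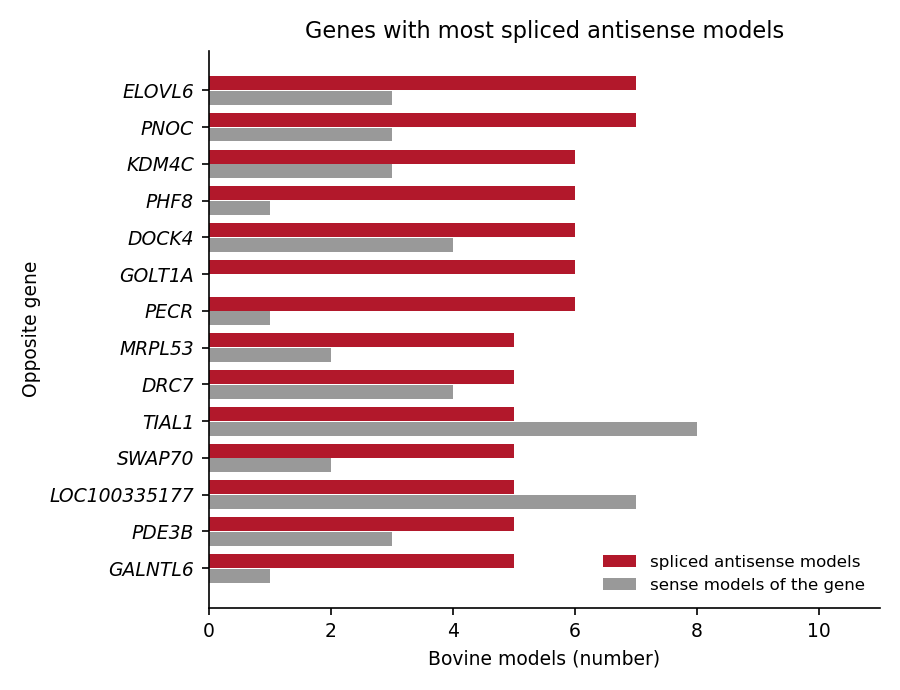
Number of bovine models (x axis) for 14 of the opposite genes with most spliced antisense models (y axis), with the antisense models above the sense models of the same gene in each pair of bars. ELOVL6 and PNOC have 7 antisense models each, GOLT1A has 6 without a sense model, and TIAL1 and LOC100335177 have more sense than antisense models.

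The named tail-to-tail models began beyond the end of the opposite gene. The fatty acid elongase gene ELOVL6 was met at its end by 7 models on the minus strand of chromosome 6 that shared a start at 15395711. Of these, 2 ended at 15341696 and 5 at 15356387. All 7 crossed an intron of 35045 bp, and their last exons, of 2118 to 3866 bp, made up most of their length. The overlap with assembled ELOVL6 exons ran from 37 to 727 bp. Opposite PDE3B, a phosphodiesterase of cyclic nucleotides, 5 models shared a start at 37924927 on chromosome 15 and a first exon of 242 bp, and reached up to 55284 bp. Of these, 2 overlapped an assembled PDE3B exon, by 114 and 170 bp. Opposite SWAP70, a signalling protein of the cytoskeleton, 2 models were tail to tail and 3 lay inside the gene, at separate loci.

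Models inside the opposite gene included those of PECR, an enzyme of fatty acid chain elongation in peroxisomes, and DRC7, a subunit of the dynein regulatory complex of cilia. PECR had 6 antisense models that began at 104075582 on chromosome 2 and overlapped no exon of its exact match. The shortest had 1046 bp and the longest 8634 bp after splicing. DRC7 had 5 models of 3 exons that ran between 25694485 and 25698536 on chromosome 18 and overlapped its exons by 795 or 857 bp. GOLT1A, a gene of vesicle transport at the Golgi, had 6 antisense models on chromosome 16 (1958783 to 1970214) and no sense model in the library. DOCK4, an activator of small GTPases, had 6 on chromosome 4 with a shared start at 56676659 and an intron of 82624 bp, outside the outline of its 4 sense models. GALNTL6, related to enzymes that start O-glycans, had 5 antisense models at 3 loci, and the longest span of all members, 185183 bp on chromosome 8, was among them. RNF180, a ubiquitin ligase gene, also had 5 antisense models, on chromosome 20, with no sense model. It tied with GALNTL6 for the last place in the plot of genes with most antisense models and is not drawn there. LOC100335177, on chromosome 8, had 5 antisense models, of which 4 were head to head with its 7 sense models.

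Of the lists of genes looked up among the opposite genes, that of histone lysine methyltransferases and demethylases had most hits. In it 6 of 40 symbols (15%, 5.71% to 29.8%) had an antisense model, all of them among the 37 with a sense model, beside 4.17% of all 13375 bovine genes with a sense model. The share of the list is over all 40 symbols, while the 4.17% counts only genes with a sense model, so the denominators differ. Genes of the list differ in length, and no test was made. The demethylase genes KDM4C and PHF8 had 6 models each, SMYD3 had 3, SETD7 had 2, and KMT2A and KMT2E had 1 each.

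KDM4C removes methyl groups from lysine 9 and lysine 36 of histone H3, and it carried antisense models at both ends. At its start, 4 head-to-head models on chromosome 8 ended together at 38153703, with starts at 38140807 and 38142017. These starts lay 1425 and 215 bp inside the outline of the exact matches. From the nearest start of a KDM4C exact match the distances were 1081 and -129 bp, where a value below 0 is upstream. At its end, 2 models began at 37651449 and reached into the gene over introns of 79024 and 90695 bp, 1 of them with an overlap of 332 bp. PHF8, an X-linked demethylase of histones H3 and H4, had 6 models that shared a start at 91436940 and a first exon of 77 bp, 64085 bp from the start of its only sense model. Their ends lay between 91458453 and 91468428, and 5 of the 6 reached the outline of that model. SMYD3, a lysine methyltransferase, had 3 tail-to-tail models on the minus strand of chromosome 16, and their span overlapped over 4025 bp with plus-strand models that lie opposite KIF26B, a kinesin gene. SETD7, which methylates lysine 4 of histone H3, had 2 models with a shared start at 18215951 on chromosome 17. KMT2E had 1 model inside the gene with an overlap of 359 bp, and the model of KMT2A lay outside the outline of its single sense model.

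Among pluripotency and lineage genes, 4 of 28 symbols had antisense models (14.3%, 4.03% to 32.7%), all of them among the 24 with a sense model. The lower limit lies close to the 4.17% of all bovine genes with a sense model. That share counts only genes with a sense model, while the interval is over all 28 symbols, so the denominators differ. No test was made. LIN28A, an RNA-binding protein that blocks maturation of let-7, had 2 on chromosome 2, between 126717433 and 126721413, with overlaps of 452 and 374 bp. TFAP2C, a transcription factor of the trophectoderm, had 2 that ended together at 59378361 on chromosome 13. They began 933 and 3069 bp inside the outline of its exact matches. From the nearest start of a TFAP2C exact match the distances were -521 and 1615 bp, where a value below 0 is upstream. The related TFAP2A had 2 models of 2 exons on chromosome 23, 1 inside and 1 outside the outline of its single sense model. YAP1, an effector of Hippo signalling, had 1 tail-to-tail model that spanned 55477 bp on chromosome 15. TFAP2A was also the only symbol found in the list of 35 genes at imprinted loci or with antisense RNAs known in mammals.

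The counts of the other lists are small numbers, to be read against the same 4.17% of all bovine genes with a sense model. The share of a list is over all its symbols, with or without a sense model. Splicing factors had 2 of 50 symbols, SRSF1 and U2AF2, a share close to that background. Genes of genome activation (0 of 22), maternal oocyte genes (0 of 41), silencing of transposable elements and DNA methylation (0 of 50) and the cell cycle (0 of 42) had no spliced antisense model, with a sense model for 12, 35, 46 and 39 of their symbols. The upper limits of these shares are 15.4%, 8.60%, 7.11% and 8.41%, all above 4.17%, so these counts of 0 do not set the lists apart from other genes. Markers of cumulus and granulosa cells (0 of 22), sperm (0 of 16) and blood and immune cells (0 of 15) were not among the opposite genes either, with a sense model for 15, 6 and 6 of them. A model that was not assembled does not show that the transcript is absent.

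The longest overlaps came from a few models with long exons. Opposite LOC100139585 on chromosome 29, 2 models of 10359 and 11954 bp overlapped its assembled exons by 7580 bp each. A model opposite LOC112445065 on the X chromosome overlapped by 4944 bp. PRDM13, a zinc finger protein of neural development, had 2798 bp and ESRRG, an orphan nuclear receptor, 2720 bp. MRPL53 came next with the 2377 bp given above, and then the homeobox gene BSX with 2025 bp. ATF6, a sensor of endoplasmic reticulum stress, had 1797 bp, and CPNE8 and ZCCHC3 had 1757 bp each. All of these but the pair at LOC100139585 were models of 2 exons.

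Noncoding reference transcripts lay opposite most of the models with many exons. Of the 13 models with 8 or more exons, 8 (61.5%, 31.6% to 86.1%) lay opposite a noncoding reference transcript, against 16.7% of all 1255 (14.7% to 18.9%). Several of the 13 share a start, at LOC112449051 or at LOC107132371. The share therefore rests on few loci, and its interval treats these models as independent. The largest, with 23 exons, ran from 14145110 to 14073939 on the minus strand of chromosome 21, opposite the noncoding LOC101902856. It shared its start with 4 of the 5 CHD2 models that share some but not all junctions with the reference (class code j), which have 36 to 38 exons. CHD2 is a chromatin remodeller. Opposite LGALS8, a galectin gene, 3 models of 4, 10 and 17 exons ended together at 9193292 on chromosome 28, 585 bp beyond the last base of the assembled LGALS8 models. The next named model on their own strand, of the ribosome biogenesis gene HEATR1, lay 29332 bp further upstream. At LOC112449051 on chromosome 12, 3 models of 15 exons shared a start at 29752683, and at LOC107132371 on chromosome 4, models of 16 and 14 exons shared a start at 7598371. KIF26B had a model of 10 exons. LOC112442559 had a model of 9 exons, in the locus of the kinase gene STK39.

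Some antisense models shared a locus or a start with a named gene on their own strand. A locus with a sense model of another named gene held 57 of the 1255 models (4.54%, 3.46% to 5.84%) at 40 loci, and 42 (3.35%, 2.42% to 4.50%) shared a start group with such a gene. These starts belonged to 30 named genes or gene pairs. Models from the start of KCTD20 lay opposite PXT1 (3 models), those from RIMKLB opposite MFAP5 (3), from STX19 opposite NSUN3 (2), and from LARP1, a regulator of translation, opposite FAXDC2 (1). A model from CUL1, the scaffold of a ubiquitin ligase, lay opposite LOC112446452. The genes of this paragraph other than PXT1 were chosen after their values were seen.

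The 4 antisense models of NLRP12, a gene of innate immunity, began at the locus of the microRNA gene MIR371. In mammals the miR-371 cluster and its mouse counterpart, the miR-290 cluster, give microRNAs of early embryos and pluripotent cells. The deposited models included 2 sense models of MIR371, a single-exon exact match and a longer spliced model that contains it. Their read support is unknown, so the exact match of 79 bp does not show that a separate transcript of that length was read. The 4 antisense models and the longer sense model shared both ends on the plus strand of chromosome 18, at 60902355 and 60919897. The exact match of MIR371 (60903171 to 60903249, 79 bp) began 816 bp from that start. In the longer sense model it lay within an exon of 1255 bp (60902619 to 60903873). In all 4 antisense models it lay within an intron, since their second exon ended at 60902740 or 60902765 and the exon after it began at 60903349 or 60903632. The last exon, of 14 bp, lay across an intron of 16010 bp. That is the smallest last exon of the spliced antisense models, whose median was 639 bp. How firmly so short an exon was placed was not tested. NLRP12 itself had no sense model, so no overlap with an assembled NLRP12 exon was seen. The locus was looked at closely after its values were seen.

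**Figure D5:**
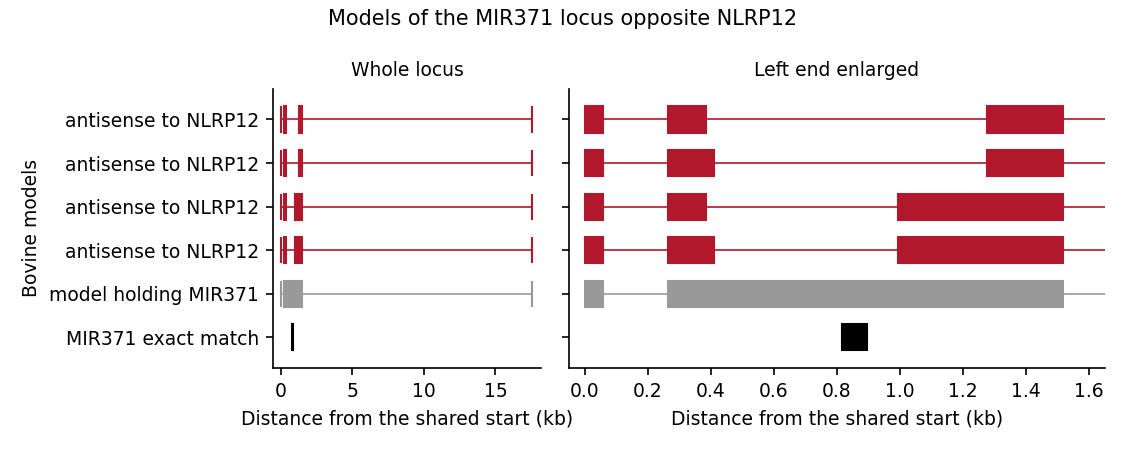
Exons (boxes) and introns (lines) of the 4 bovine models antisense to NLRP12, the longer sense model that holds MIR371 and the single-exon exact match of MIR371, drawn to scale by distance from the shared start (x axis, kb), with the whole locus on the left and its first part enlarged on the right. The 79 bp of the exact match fall inside an intron of each of the 4 antisense models and inside an exon of the model that holds MIR371.

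Mouse Nlrp12 also had spliced antisense models, 2 on chromosome 7 (mm10), from 3225169 to 3233379 and from 3237561 to 3241736. On their strand, the nearest upstream model of a gene of that strand was the single-exon noncoding RNA D7Ertd143e (3218784 to 3221015), which ended 4154 bp before the first of them. It holds 5 hairpins of the miR-290 cluster by the RefSeq table (GRCm38.p6). The mature 3p sequences from these hairpins are shown with the seed, bases 2 to 8, in capitals, and their seeds are not all the same.
mmu-miR-291a-3p: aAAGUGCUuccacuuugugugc
mmu-miR-294-3p: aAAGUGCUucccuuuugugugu
mmu-miR-295-3p: aAAGUGCUacuacuuuugagucu
mmu-miR-291b-3p: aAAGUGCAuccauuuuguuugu
mmu-miR-293-3p: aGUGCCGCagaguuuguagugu
The first 3 share the seed AAGUGCU. The bovine MIR371 sequence was not used here, so the seeds were not compared between species.

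Few genes had a spliced antisense model in both species. Of 854 bovine and 1084 mouse opposite genes, 31 had the same symbol, 3.63% of the bovine genes (2.48% to 5.11%) and 2.86% of the mouse genes (1.95% to 4.03%). Sequence and exact position were not aligned between the species, so a shared symbol does not show a shared transcript. HMCN1, a protein of the extracellular matrix, had 3 models in bovine and 3 in mouse, each set with a single shared start. In bovine they ran from 67261504 on the minus strand of chromosome 16, outside the outline of the only sense model. SCFD1, a factor of vesicle fusion, had 3 bovine and 2 mouse models, and those of both species were tail to tail. The bovine models spanned 65450 to 66508 bp. RBL1 had 3 bovine and 2 mouse models, head to head in bovine but inside the gene in mouse, 21704 bp from its start. PXT1 had 3 bovine and 2 mouse models, NLRP12 had 4 bovine and 2 mouse models, and UNC5D, a receptor of netrin, had 2 in each species. ZBTB7C (4 bovine, 1 mouse), BNC2 (1 bovine, 3 mouse) and WDR45B (1 bovine, 5 mouse) were also among the leading genes. WDR45B, an autophagy protein gene, was met head to head in both species, and its 5 mouse models shared the locus of Fn3krp.

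The models with the longest span after that of GALNTL6 lay opposite LOC107132765 (164928 bp), SGCD (164345 bp), LOC112443514 (159607 bp), SYT1 (155027 bp), SSBP2 (154427 bp), HAL (154162 bp) and LOC104976069 (148321 bp). Those of SGCD, a gene of the sarcoglycan complex of muscle, and of SSBP2, a transcriptional cofactor, were tail to tail pairs with overlaps of 372 and 125 bp. The SSBP2 pair started in the start group of LOC112447560. The model of HAL, an enzyme of histidine breakdown, was head to head, with its start 1545 bp inside the gene. All of these had 3 to 6 exons and 824 to 1915 bp of spliced length in the longest-spanning model.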

How the data were processed

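For each library the authors deposited transcript models made with StringTie, per the files' source column, with exon positions, gene name, closest reference transcript, class code, locus and start group. The deposited positions are the only numbers used (unit other, 1-based), and no abundance was used. The builds are mm10 and bosTau9, per the submitters' processing notes. The aligner, the program that set the class codes, versions and filters were not given in the sources used here. A filter on rare transcripts could change the number of antisense models, which was not tested.

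Spliced antisense models have class code x and at least 2 exons. Sense models have class codes =, c, k, m, n, j or o. The opposite gene is the one named in the model. Outlines run from the first to the last base of its exact matches (=) or, where stated, of all its sense models, and distances are measured from the outline's start. A model that begins inside the outline can thus begin upstream of another exact match of the gene. Shares carry exact Clopper-Pearson 95% intervals (scipy 1.17.1, Python 3.11.15), and medians were made with numpy 2.4.6. Arrangement and distance from the exact-match outline were tested on simulated models opposite genes with a single exact match. Genes with several exact matches, starts upstream, models outside the outline and the outline of all sense models were not covered. Named genes are the 15 with most models (ties by exonic overlap, then by name, which left out RNF180), the genes on lists, those of the 10 models with most exons, longest overlap and longest span, and the 10 leading same-symbol genes. A gene that this rule names is not reported here. The members and lists were chosen with earlier results of these data known. Bovine sequence was not analysed here. Mouse microRNAs were placed by RefSeq GRCm38.p6, the build also called mm10.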

Additional observations from a re-analysis of the deposited data

How the results depend on the processing

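No paired analysis was possible because each species has 1 library and no test was made. With 3 exons or more, 647 models remained, 2.00% of all models with as many exons, and 13 same-symbol genes were shared with mouse. Counted as loci, antisense loci made up 5.12% of loci with a spliced model. With exact matches alone, 18.9% of members overlapped an opposite exon and 33.1% of opposite genes had a model. With all sense models as outline, head-to-head overlap made up 29.4% and tail-to-tail overlap 22.4%, with models outside the outline between them at 25.6%. Starts near the opposite start made up 15.4% within 500 bp and 39.3% within 2000 bp. With all sense models as outline, 20.6% lay within 1000 bp. The cause of these differences was not tested beyond what each alternative counts. A 50 bp minimum overlap gave 30.9%, models inside the gene made up 18.6% with all sense models as outline, and 1 model per locus gave medians of 2 exons and 1114 bp. Read depth is unknown, so genes without an antisense model may only be below what was assembled.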
